A study of Mus musculus with 22 samples.

Results

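The Dlk1-Dio3 cluster is a stretch of mouse chromosome 12 in which genes are expressed from one parental copy only. Its members were taken by position, as every H3K27ac and H3K9me3 region and every histone peak that touches a 0.95 Mb interval of chromosome 12 (mm10) from upstream of Dlk1 to past Dio3, with H3K27ac regions spanning chr12:109416735-110350683. They were 60 of 135566 H3K27ac regions and 21 of 68845 H3K9me3 regions, with 7 named genes. The cluster was proposed because its H3K27ac was far lower in the C2 and C3 lines than in the OSKM line, so those differences are given here as a description, with no p-value, and the number of regions called in them supports nothing. The other comparisons were not used to propose it and are tested.

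H3K27ac marks active promoters and enhancers, and H3K9me3 marks heterochromatin and silenced repeats. Both were mapped by chromatin immunoprecipitation with sequencing in 3 lines of induced pluripotent stem (iPS) cells, all derived from C57BL/6 mouse embryonic fibroblasts and all exposed to 4-hydroxytamoxifen, which acts on an Oct4-driven MerCreMer reporter. The OSKM line received Oct4, Sox2, Klf4 and c-Myc. The C2 line received 3 artificial factors, labelled ZFATF1, ZFATF2 and ZFATF3, in place of Oct4, and the C3 line ZFATF1, ZFATF2 and ZFATF4, each beside the same Sox2, Klf4 and c-Myc. There were 2 libraries per line and mark. The HA tag was mapped at day 20 in fibroblast-derived cells with the C2 set of factors and in cells labelled Empty, which received Sox2, Klf4 and c-Myc without an artificial factor, 2 libraries each. Factor set goes with line, so an effect of the factors and one of the line cannot be told apart, and what separates the libraries of a line (cultures, clones or repeated precipitations) is not labelled, so p-values measure only the spread between these libraries.

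In the cluster, Dlk1, Rtl1 and Dio3 are protein-coding genes of the paternal copy, while Meg3 (also called Gtl2), Rian and Mirg are noncoding RNAs of the maternal copy and host many microRNAs and small nucleolar RNAs. An imprinting control region between Dlk1 and Meg3 carries DNA methylation on the paternal copy, and its unmethylated maternal copy acts as an enhancer-like element for Meg3. Meg3 and its microRNAs are known to be silenced on both copies in some mouse iPS lines, a state linked to poorer developmental potential. These libraries come from an inbred strain, and the tables do not separate the parental copies. The exact extent of the control region was not used here.

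The sequences that the acetylation results turn on are the start sites of Meg3 and Gm34081, a noncoding RNA gene that runs head to head with Meg3. They are from RefSeq (GRCm38.p6, the mm10 assembly), 250 bases before to 50 bases after a start site, 5′ to 3′ on the gene's own strand, with each CG pair, the target of DNA methylation, in capitals.
Meg3, chr12:109540746-109541045, plus strand: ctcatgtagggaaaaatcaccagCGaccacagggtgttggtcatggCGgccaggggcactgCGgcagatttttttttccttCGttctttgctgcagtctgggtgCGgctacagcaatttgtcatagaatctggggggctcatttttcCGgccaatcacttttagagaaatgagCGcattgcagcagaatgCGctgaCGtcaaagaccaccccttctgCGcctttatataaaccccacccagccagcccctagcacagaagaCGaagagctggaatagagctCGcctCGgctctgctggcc
Gm34081 start beside Meg3, chr12:109540100-109540399, minus strand: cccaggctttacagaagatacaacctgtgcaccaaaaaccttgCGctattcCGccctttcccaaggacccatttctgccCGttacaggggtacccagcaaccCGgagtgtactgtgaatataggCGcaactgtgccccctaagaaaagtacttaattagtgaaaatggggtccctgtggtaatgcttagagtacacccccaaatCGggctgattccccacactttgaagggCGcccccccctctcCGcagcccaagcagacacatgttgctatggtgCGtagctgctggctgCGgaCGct
Gm34081 start inside the acetylated block, chr12:109526220-109526519, minus strand: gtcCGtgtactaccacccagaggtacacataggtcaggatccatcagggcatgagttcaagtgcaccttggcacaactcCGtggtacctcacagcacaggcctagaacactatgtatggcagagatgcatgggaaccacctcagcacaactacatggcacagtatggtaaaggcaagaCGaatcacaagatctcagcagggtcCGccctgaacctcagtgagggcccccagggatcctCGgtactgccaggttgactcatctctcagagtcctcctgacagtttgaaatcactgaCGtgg
The Meg3 window held 13 CG pairs, the Gm34081 window beside it 11 and the one inside the block 6, where the median over 32851 mouse promoter windows was 7. The 6-base motif TGCCGC, searched on both strands as the core of the motif bound by the imprint protector ZFP57, occurred 1 time in the Meg3 window and not in either Gm34081 window, and 11.6% of all promoter windows hold it.

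The unit of the region tables is normalized reads, and a table's lowest value is 1 read, about 0.84 to 1.28 normalized reads depending on the library. From the tags and the genome size in the peak files' headers, an even background would put between 198 and 231 reads over a stretch of 12814 bp in an H3K27ac library. A value of 1 read over such a stretch therefore cannot be a plain read count, and the tables' values are read here as reads above control, with 1 read as the floor. No fold is given against a group at that floor.

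Gm34081 carried the strongest acetylation difference of the cluster. Its largest region, a 12814 bp block at chr12:109521366-109534179 that lies within the gene and before the Meg3 start, had 2630.1 and 2419.7 normalized H3K27ac reads in the OSKM libraries and the 1-read floor in both C2 libraries. Beside C3, on that table's own scale, it had 2857.7 and 2632.1 in OSKM and again the floor in both C3 libraries. The groups were thus apart by the whole range of the scale in each table. OSKM peaks covered 12408 and 12490 bp of the block, with a highest fold enrichment over background, as the authors' peak caller gave it, of 17.3 and 14.8. No H3K27ac peak was called in the block in any C2 or C3 library. In pooled cells, fewer cells with the mark and less mark per cell cannot be told apart.

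Other Gm34081 regions were also higher in OSKM. Region chr12:109511659-109512944 had 103.6 and 103.1 normalized reads in OSKM and the floor in C2, and it was at the floor in C3 as well. Region chr12:109509023-109510273, at the start of the neighbouring noncoding gene Gm34017, had 67.0 and 82.1 in OSKM and the floor in both C2 and both C3 libraries. The region farthest from Meg3, chr12:109500326-109501323, was not at the floor in C3. It had 35.6 and 53.9 in OSKM and the floor in both C2 libraries, and on the C3 table's scale 38.6 and 58.6 in OSKM and 30.1 and 2.18 in C3. Of the C2 and C3 libraries, C3 replicate 1 alone had a peak there, with a fold enrichment of 5.02, and both OSKM libraries had one, at 2.94 and 4.25.

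**Figure D1:**
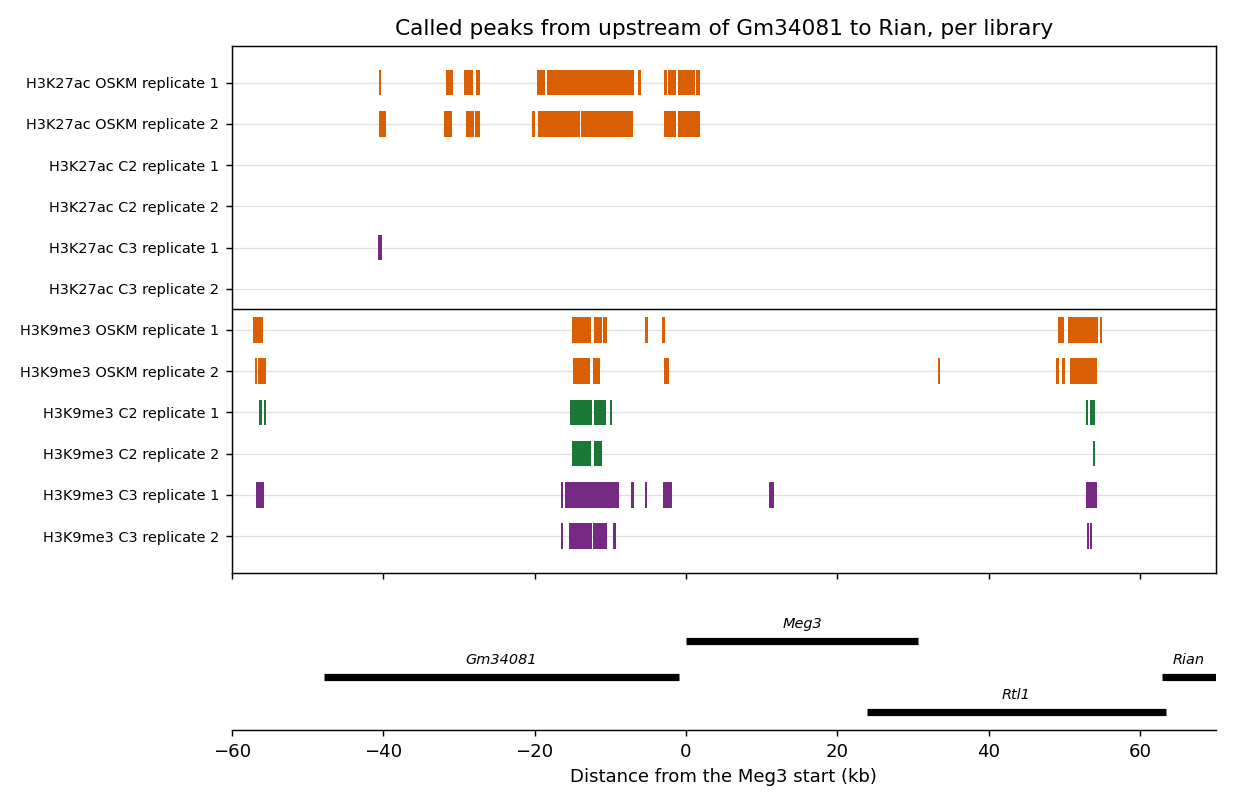
Called peaks of each histone library by distance from the Meg3 start (kb, horizontal axis), with the extents of Gm34081, Meg3, Rtl1 and the start of Rian beneath; each bar is 1 peak and each row 1 library. H3K27ac peaks fill the block before Meg3 in both OSKM libraries and in none of the C2 and C3 libraries, while H3K9me3 peaks lie inside the same block in all 6 libraries, and the H3K9me3 peaks in Rtl1 are longest in OSKM.

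Meg3, the noncoding RNA that opens the maternal transcript, carried H3K27ac above the floor at its start in the OSKM libraries and in no C2 or C3 library. Region chr12:109539921-109542923, which spans the Meg3 start and the Gm34081 start printed beside it, had 323.0 and 386.1 normalized reads in OSKM and the floor in C2. Against C3 it had 351.0 and 420.0 in OSKM and the floor in both C3 libraries. The adjoining region chr12:109538068-109539755 showed the same split, with 183.9 and 177.1 in OSKM. Both OSKM libraries had a peak at the Meg3 start, with a highest fold enrichment of 9.32 and 8.30, and no C2 or C3 library had one. Per kb, mean OSKM levels were 197.0 normalized reads in the Gm34081 block and 118.1 at the Meg3 start.

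Further along the maternal transcript, H3K27ac was low in all 3 lines. The region in the Meg3 body nearest its start, chr12:109543383-109544383, had 9.14 and 10.95 normalized reads in OSKM and the floor in C2, and beside C3 9.93 and 11.9 in OSKM and the floor in both C3 libraries. Past it, the next 12 regions, from chr12:109547037-109548037 in the Meg3 body through Rtl1, Rian and Mirg, stayed under 10 in every library, the highest at 9.93. The region named for Rian, the noncoding RNA that hosts small nucleolar RNAs, had 1.02 and 4.56 in OSKM and 5.04 and 1.28 in C2. The regions named for Rtl1, a retrotransposon-derived gene, and for Mirg, the most distant microRNA host, were at the floor in both OSKM and both C2 libraries.

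The outer genes differed less. Dlk1, which encodes a Notch-like transmembrane protein, had no H3K27ac region within 2500 bp, and the nearest lay 3431 bp away. That region, chr12:109448237-109449054, had 45.7 and 39.2 normalized reads in OSKM and 12.6 and 2.57 in C2, and on the C3 table's scale 49.7 and 42.7 in OSKM and 23.4 and 1.09 in C3. Dio3 encodes the enzyme that inactivates thyroid hormone. Its region chr12:110278896-110279698 had 24.4 and 28.3 normalized reads in OSKM and 31.9 and 46.2 in C2, and beside C3 it had 26.5 and 30.8 in OSKM and 43.5 and 76.4 in C3. Dio3 was therefore the one member whose C2 and C3 libraries all lay above OSKM, at a low level. Its region was called higher in neither comparison, and the share of all regions that lay above OSKM is not given here. A peak was called there in C2 replicate 1 and in both C3 libraries but in neither OSKM library.

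**Figure D2:**
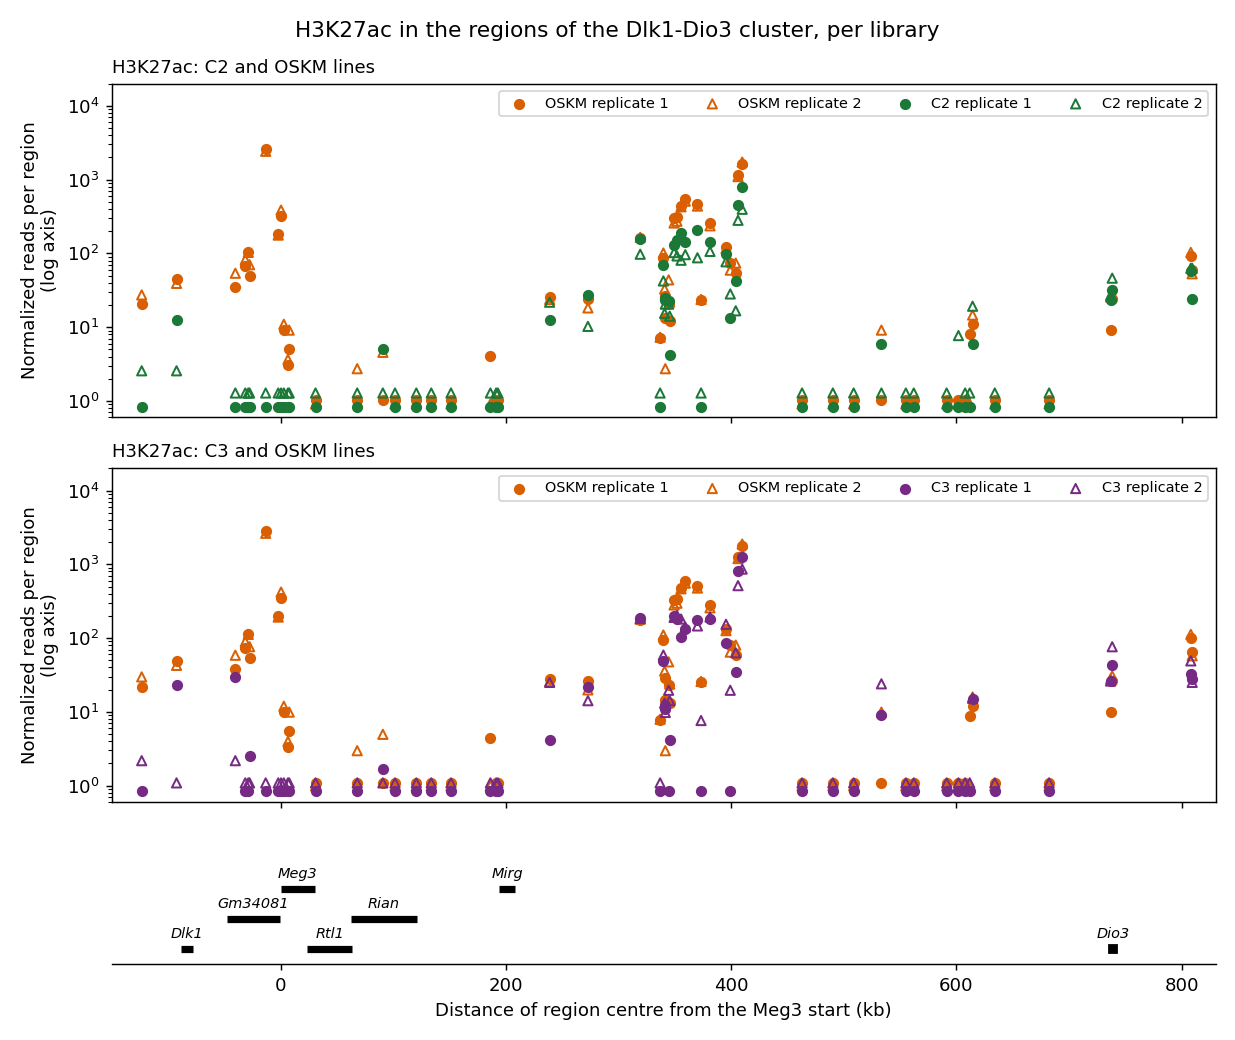
H3K27ac in each of the 60 regions of the cluster, by distance of the region's centre from the Meg3 start (kb, horizontal axis) and normalized reads (log vertical axis); each point is 1 library, the upper panel sets C2 and the lower C3 beside OSKM. In the block before Meg3, OSKM points rise to 2630.1 in the upper and 2857.7 in the lower panel, where C2 and C3 sit at the 1-read floor, and all lines carry signal in the group of regions beyond Mirg.

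A second acetylated stretch lay far from the named genes, between Mirg and Dio3 and around the noncoding gene Gm34554 (chr12:109858760-109953083, 19 regions, bounds chosen after their values were seen). Here all 3 lines were acetylated. Both C2 libraries lay below both OSKM libraries in 16 of the 19 regions, above them in 1 and overlapped them in 2, and C3 lay below in 14, above in 1 and overlapped in 4 (over all fitted regions, 30.3% and 30.4% lay below). Its strongest region, chr12:109948539-109953083, had 1608.1 and 1728.7 normalized reads in OSKM against 796.9 and 396.4 in C2, a mean 2.80-fold higher in OSKM. Beside C3 it had 1747.3 and 1880.5 in OSKM and 1253.1 and 861.7 in C3, a 1.72-fold difference. Region chr12:109898547-109902077 differed more, with 550.6 and 510.2 in OSKM against 142.1 and 96.2 in C2, 4.45-fold, and 598.3 and 555.0 against 134.7 and 140.7 in C3, 4.19-fold. In both of these regions the OSKM libraries lay above all C2 and C3 libraries.

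Per 1000000 of a library's reads in H3K27ac regions, the cluster held 238 ± 41.8 in C2 (SD, n = 2), 263 ± 18.0 in C3 and 739 ± 15.3 in OSKM. The stretch from Gm34081 to Meg3 took 270.7 and 259.8 per 1000000 in the OSKM libraries, 2.72 and 1.11 in C3 and 0.85 and 1.56 in C2. Around Gm34554 it was 452.3 and 440.1 in OSKM, 232.8 and 251.2 in C3 and 246.1 and 174.9 in C2. The Gm34081 to Meg3 stretch thus held about 36% of the cluster's acetylation in OSKM (36.1% and 35.7%) and at most 1.09% in a C2 or C3 library. On the 0.95 Mb before the cluster the order was the other way, with 167 and 186 per 1000000 in OSKM, 253 and 236 in C3 and 237 and 208 in C2. On the 0.95 Mb after it, OSKM held 1792 and 1751, C2 1440.4 and 1451 and C3 1443 and 1457. These shares have 2 libraries a line and were not tested.

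Over all regions of the cluster, the fit (limma on the log2 of normalized reads plus 1, adjusted over every fitted region of the table) called 17 regions lower and 0 higher in C2 than in OSKM. Of the 60 regions 43 passed the filter on low values. Of all fitted regions 10.6% were called in that comparison, 5.38% lower and 5.21% higher. Against C3, where again 43 were fitted, it called 13 lower and 0 higher, and of all fitted regions 22.0% were called, 8.52% lower and 13.5% higher. Both C2 libraries lay below both OSKM libraries in 30 of the cluster's 43 fitted regions, and both C3 libraries did in 30 of 43 as well. Over all fitted regions, 30.3% and 30.4% lay below. In 9 regions C2 was at the floor in both libraries with an OSKM mean of at least 10 (0.452% of all fitted regions), and in 6 regions C3 was (1.37%). The median log2 difference over the fitted regions of the cluster was -1.20 in C2 and -1.24 in C3, beside -0.01 and 0.03 over all fitted regions. Since the cluster was chosen on these contrasts, which share the OSKM libraries, and since a region could pass the filter through OSKM alone, nothing is read from these counts. Between C2 and C3, 0 of 31 fitted regions were called, where 0.0581% of all fitted regions were. Of the 11 regions from Gm34081 to Meg3, 1 was fitted there, with a log2 difference of -2.18. The lack of calls therefore says little about that stretch. In that comparison 0 regions had an unadjusted limma p under 0.05, and edgeR and DESeq2 also called 0. The authors' deposited comparison called 0 as well. It gave the 1 fitted region from Gm34081 to Meg3 a log2 difference of -3.77 (FDR 0.079). The C2 minus C3 difference was -0.08 ± 0.33 (log2, SE) in region chr12:109898547-109902077 and -0.42 ± 0.50 at Dio3 (limma adjusted p = 0.94 and 0.77).

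Cell type markers moved between the lines as well. Each marker is given by its strongest region, while the shares beside the counts are over all fitted regions, weaker ones included. The summed H3K27ac at the strongest regions of 10 pluripotency genes was 19467 and 14579 normalized reads in C2 against 35790 and 35259 in OSKM, with 7 of 10 called lower, and 33400 and 21494 in C3 against 38888 and 38354, with 3 of 10 called lower, where 5.38% and 8.52% of all fitted regions were called lower. At 5 endoderm genes it was 2044 and 993 in C2 against 280 and 587 in OSKM, and 3879 and 2160 in C3 against 313 and 639, with 3 and 4 genes called higher, where 5.21% and 13.5% of all fitted regions were. At the 6 of 8 fibroblast genes with a region it was 235.4 and 234.8 in C2 against 174 and 251 in OSKM, and 297 and 281 in C3 against 212 and 259, with 0 called and 1 to 3 of the 6 under 10 in each library. Of the 5 endoderm genes, 2 were under 10 in OSKM replicate 1, and none were in the other libraries. H3K27ac C2 replicate 2 had fewer peaks, 76915 against 86571 to 116945 in the other 5 libraries, and 11 peaks in the cluster against 30 in C2 replicate 1. The part of these differences in the cluster's values was not tested.

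Genes that act on imprints were looked at beside the cluster. Of 16 such genes, all with an H3K27ac region, 0 were called higher and 2 lower in C2 than in OSKM, and 1 higher and 1 lower in C3. Over all fitted regions 10.6% and 22.0% were called, and the list's counts lay near or below that background. The list takes each gene's strongest region, while the background holds weaker regions too, so the sets are unlike. The C2 pair was the DNA methyltransferase gene Dnmt3a, with 789.3 and 511.9 normalized reads in C2 and 1320.6 and 1178.3 in OSKM, and Jarid2, a Polycomb cofactor, with 459.8 and 246.3 against 714.2 and 749.4. In C3, Dnmt3a had 933.6 and 503.9 against 1434.9 and 1281.8 and was not called. Dppa3, which protects the maternal genome from demethylation, was lower in C3, with 147.2 and 166.9 against 288.1 and 260.1, and Aff3, whose product binds imprinting control regions, was higher, with 536.2 and 308.7 against 223.0 and 183.7. Zfp57, which encodes the zinc-finger protein that guards imprints, had 3118.7 and 2093.9 in C2 against 4238.2 and 4485.2 in OSKM and was not called. Of 10 genes on either side of the cluster, 1 was called in C2 (Hsp90aa1, lower) and 0 in C3. Among these genes, Wars and Wdr25 share the same region.

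The values that the cluster was chosen on were also counted elsewhere, as a description that supports nothing about the cluster. Of 125232 regions on the autosomes other than chromosome 8, 122 were at the floor in all 4 C2 and C3 libraries with an OSKM mean of at least 10, and 6 of these lay in the cluster. Above a mean of 100 there were 7, of which 4 were in the cluster. The highest outside it were at chr10:111143085-111145307, 11090 bp from Gm8873, with 232 ± 26.6 normalized reads in OSKM (SD, n = 2), in Cdk8 on chromosome 5 with 133 ± 38.6, and 9477 bp from Klrb1 on chromosome 6 with 111 ± 12.5. Next came regions in Igsf21 with 77.8 ± 10.6 and in Zfp316 with 73.8 ± 6.66.

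H3K9me3 was present inside the acetylated block in every line. Region chr12:109525023-109532098, which covers the Gm34081 start printed above, had 758.5 and 686.6 normalized reads in OSKM and 1042.1 and 747.1 in C2. The ranges of C2 and OSKM overlapped, and the C2 minus OSKM difference was 0.29 ± 0.17 (log2, SE; limma adjusted p = 0.42). Without C2 replicate 2 it was 0.53 and was called (limma adjusted p = 0.000286), with the lone C2 library assumed to vary like OSKM. In C3 the region rose, with 1341.6 and 1069.1 against 846.1 and 751.6 in OSKM, 1.51-fold and 0.59 ± 0.12 on the log2 scale (limma adjusted p = 0.0076). That call was lost without OSKM replicate 2 (limma adjusted p = 0.086) and is not made in the authors' deposited table (FDR 0.12). C3 also had input libraries of its own, while C2 and OSKM shared a pair, so line and input cannot be told apart in any C3 comparison.

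In OSKM, peaks of both marks were called in the block, and H3K9me3 peaks covered 4174 and 3099 bp of it. In C2, H3K9me3 peaks covered 4746 and 3579 bp, and in C3 7878 and 5430 bp. Reads of the H3K9me3 libraries thus mapped to the block in all lines. Per 1000000 reads in H3K9me3 regions, the stretch from Gm34081 to Meg3 took 145.0 and 124.3 in OSKM, 268.3 and 218.5 in C3 and 219.1 and 171.7 in C2. By this share, all C2 and C3 libraries lay above OSKM. The cluster as a whole held 523 ± 27.5 in C2, 557 ± 71.0 in C3 and 566 ± 35.7 in OSKM (SD, n = 2). In normalized reads, the stretch had 1118.9 and 816.8 in C2 against 879.5 and 780.6 in OSKM, which overlapped. Beside C3 it had 1501.0 and 1187.6 in C3 against 981.1 and 854.5 in OSKM. The shares were not tested.

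**Figure D3:**
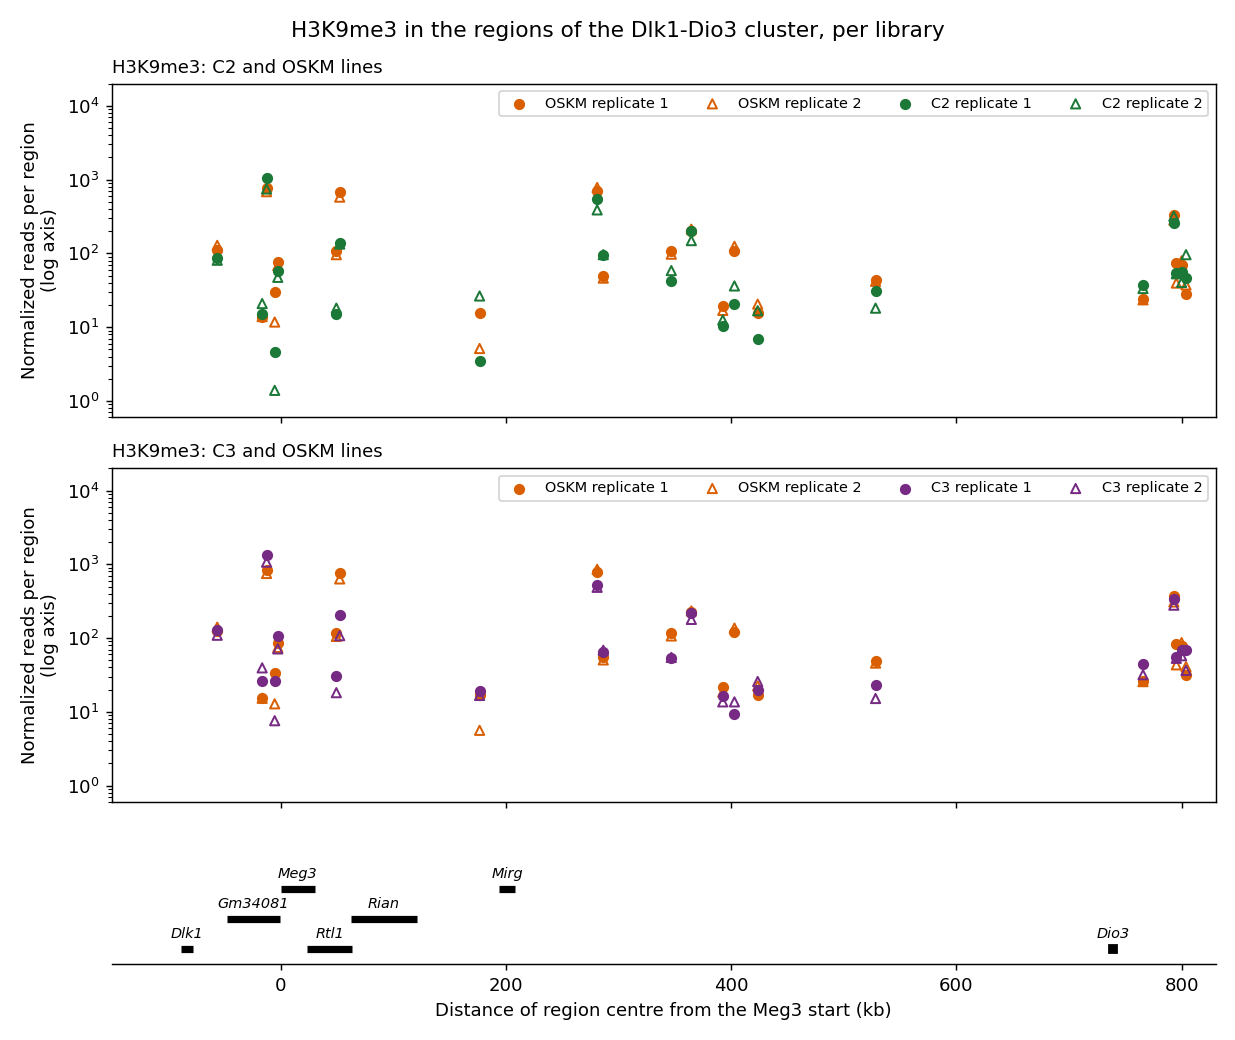
H3K9me3 in each of the 21 regions of the cluster, by distance of the region's centre from the Meg3 start (kb, horizontal axis) and normalized reads (log vertical axis); each point is 1 library, the upper panel sets C2 and the lower C3 beside OSKM. OSKM lies above C2 and C3 in the Rtl1 stretch, and C2 and C3 have H3K9me3 in the block before Meg3.

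H3K9me3 differed between lines over the microRNAs of the Rtl1 stretch. Rtl1 is read from the paternal copy, and the maternal antisense transcript yields microRNAs that pair fully with Rtl1 RNA and cut it. RefSeq places the noncoding gene 6430411K18Rik there, also called PEG11as. A pair of neighbouring regions covers 13 of the cluster's 114 mature microRNA sequences, 2 in the first region and 11 in the second. Their 13 seeds, the bases 2 to 8 that pick targets, are all different. One mature sequence of each hairpin is given, RefSeq on GRCm38.p6, with the seed in capitals.
mmu-miR-431-5p: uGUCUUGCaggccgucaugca
mmu-miR-433-3p: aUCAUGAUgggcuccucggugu
mmu-miR-127-3p: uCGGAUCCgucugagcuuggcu
mmu-miR-434-3p: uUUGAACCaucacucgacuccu
mmu-miR-432: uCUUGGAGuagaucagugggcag
mmu-miR-3071-3p: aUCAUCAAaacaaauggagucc
mmu-miR-136-5p: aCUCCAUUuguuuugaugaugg
Mir3071 lies on the minus strand, over the same bases as Mir136. Mir136 and the other hairpins are on the plus strand with Meg3.

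The region with Mir431, chr12:109589893-109591129, had 106.5 and 96.2 normalized H3K9me3 reads in OSKM and 14.9 and 18.1 in C2. It fell by 2.55 ± 0.38 on the log2 scale in C2 (limma adjusted p = 0.0035), and its OSKM mean was 6.14 times that of C2. In C3 it had 31.0 and 18.2 against 118.8 and 105.3, and fell by 2.19 ± 0.35 (log2, SE; limma adjusted p = 0.0024), a call lost without OSKM replicate 1 (limma adjusted p = 0.054). The region from Mir433 to Mir136, chr12:109591475-109595486, had 688.6 and 579.4 in OSKM and 139.9 and 133.8 in C2. It fell by 2.2 ± 0.18 in C2 (log2, SE; limma adjusted p = 3.58e-05), 4.63-fold by the means. In C3 it had 203.4 and 107.8 against 768.1 and 634.2, and fell by 2.23 ± 0.23 (log2, SE; limma adjusted p = 0.000135), 4.51-fold. No C2 or C3 library reached the OSKM range at either region. C2 and C3 themselves were not separated there, with C2 minus C3 differences of -0.36 ± 0.63 and 0.04 ± 0.29 (log2, SE). In the peak files, H3K9me3 peaks near Rtl1 covered 5008 and 4718 bp in OSKM, 1543 and 549 bp in C3 and 895 and 279 bp in C2.

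Farther downstream, 3 more regions were called. Region chr12:109943495-109944328, inside Gm34554, had 107.4 and 124.8 normalized reads in OSKM and 20.6 and 36.2 in C2, and fell by 2.04 ± 0.36 (log2, SE; limma adjusted p = 0.0086), a call lost without OSKM replicate 2 (limma adjusted p = 0.088). In C3 it had 9.48 and 13.7 against 119.8 and 136.7 and fell by 3.38 ± 0.39 (log2, SE; limma adjusted p = 0.000277). Its OSKM mean was 11.1 times that of C3, the largest ratio among the 6 regions called in that comparison. Region chr12:109818967-109825146, between Mirg and Dio3, had 709.1 and 781.3 in OSKM and 538.8 and 388.9 in C2. Its log2 difference of -0.70 ± 0.17 was just past the threshold (limma adjusted p = 0.048). It missed the threshold in edgeR (adjusted p = 0.11) and in the authors' deposited comparison (FDR 0.21), among other settings. In C3 that region fell by 0.69 ± 0.11 (log2, SE; limma adjusted p = 0.0017). Region chr12:109887386-109888369 had 118.8 and 106.9 in OSKM and 54.3 and 54.7 in C3, and fell by 1.04 ± 0.25 (log2, SE; limma adjusted p = 0.024). That call was lost without either OSKM library (limma adjusted p = 0.21 and 0.14), and in C2 the region was not called (limma adjusted p = 0.090).

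**Figure D4:**
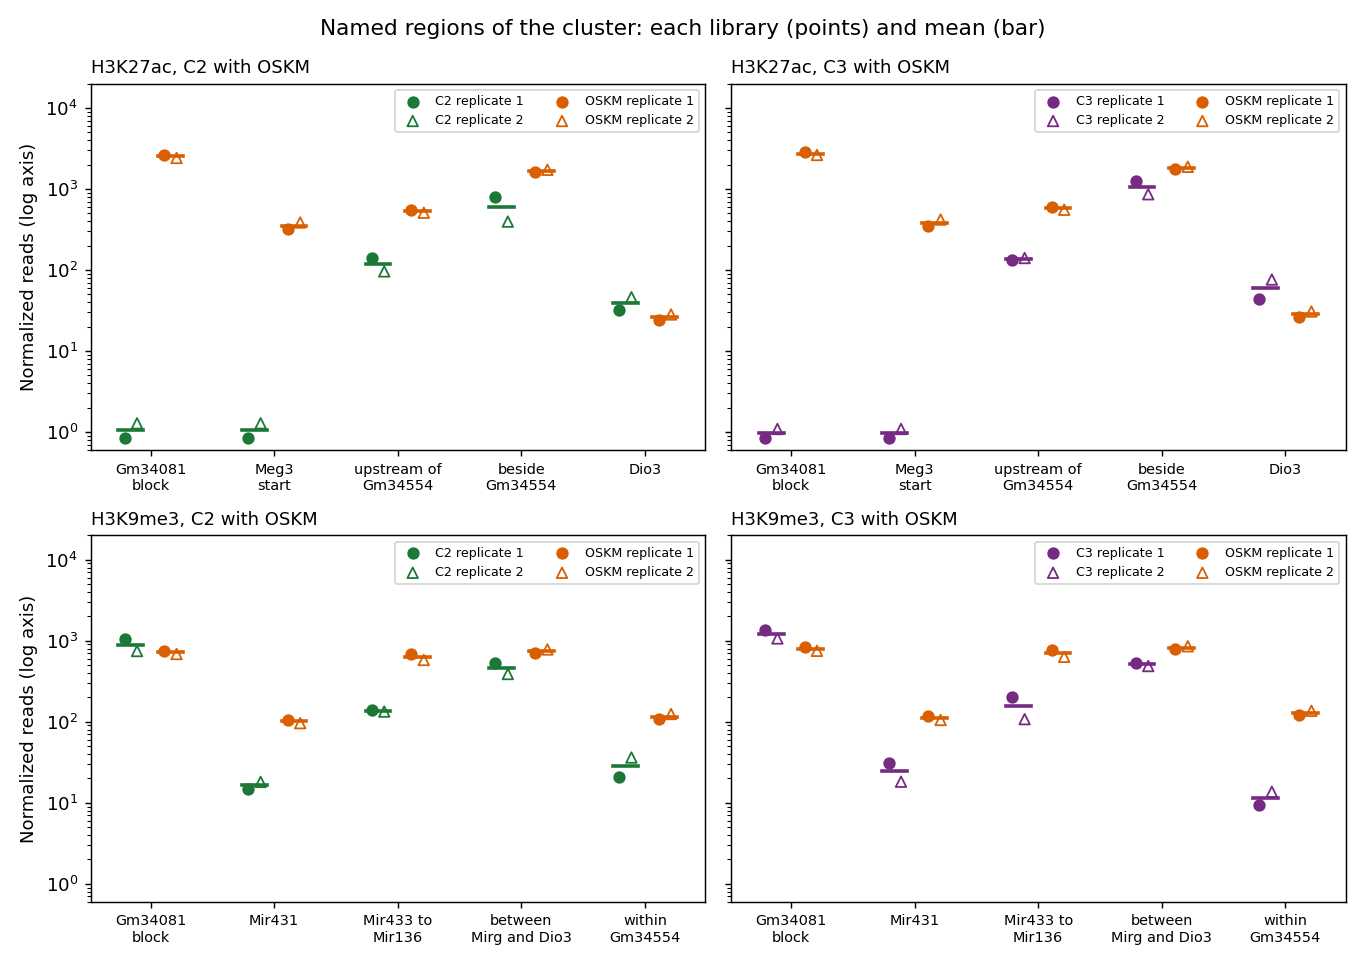
Normalized reads (log vertical axis) of 5 regions per mark named in the text (horizontal axis), with each library as a point and the mean as a bar; left panels set C2 and right panels C3 beside OSKM. H3K27ac of C2 and C3 is at the floor in the Gm34081 block and at the Meg3 start and above OSKM at Dio3, and H3K9me3 is lower than OSKM over the microRNA regions but not in the Gm34081 block.

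In all, 4 of the 21 H3K9me3 regions were called in C2, 0 higher and 4 lower, where 3.29% of all fitted regions were called, 2.9% lower and 0.389% higher. In C3, 6 were called, 1 higher and 5 lower, where 9.06% of all fitted regions were called, 7.35% lower and 1.72% higher. The median log2 difference over the 21 regions was -0.51 in C2 and -0.15 in C3, beside -0.15 and -0.06 over all fitted regions. Both comparisons share the OSKM libraries. Region chr12:109826903-109828054 went the other way in C2, with 96.3 and 96.2 normalized reads against 49.4 and 46.3 in OSKM. Its log2 difference of 0.99 ± 0.29 (SE) was not called (limma adjusted p = 0.089), but the authors' deposited comparison has it higher (FDR 0.034). Inside Gm34081 but outside the block, region chr12:109535609-109535936 had 29.8 and 11.7 normalized reads in OSKM and 4.59 and 1.39 in C2. Its log2 difference of -2.44 ± 0.89 (SE) was not called (limma adjusted p = 0.17), but the authors' deposited comparison has it lower in C2 (FDR 0.0074). C3 overlapped OSKM there. Between C2 and C3, limma called 0 of 21 regions, edgeR and DESeq2 also 0, and 1 had an unadjusted p under 0.05, where 0.134% of all fitted regions were called. Rian, Mirg, Dlk1 and Dio3 had no H3K9me3 region within 2000 bp. The one named for Meg3, 1821 bp before it, had 77.6 and 68.3 normalized reads in OSKM, 57.3 and 47.4 in C2 (limma adjusted p = 0.47), and against C3 86.5 and 74.8 in OSKM and 107.7 and 71.4 in C3 (limma adjusted p = 0.84).

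No HA peak touched a member gene. At day 20, the C2 libraries had 4 and 8 HA peaks in the cluster and the Empty libraries 3 and 4. Over the whole genome, the C2 libraries had 12376 and 44939 HA peaks and the Empty libraries 10666 and 22632. As a share of a library's HA peaks, the cluster's ranges in C2 and Empty overlapped, and the difference was not tested. No HA peak lay in the Gm34081 block or at the Meg3 start. The H3K9me3 region chr12:109900997-109910321 held 1 and 6 of the C2 peaks and 2 and 2 of the Empty peaks. The pileups of all HA peaks in the cluster were 7 to 8 in C2 and 5 to 7 in Empty. The HA libraries had 25985373 to 46426379 tags, of which a share of 0.92 to 0.94 was redundant. From 1629753 to 3896935 tags were kept per library, so a weaker signal was not detectable with the tags kept.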

How the data were processed

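The 22 samples comprised 12 histone libraries, 4 HA libraries and inputs, which were not analysed on their own. Per the submitters' processing notes, reads were aligned to mm10 with Bowtie2 2.2.5 (CASAVA 1.8.2 and SAMtools 1.3 are also named) and regions were compared with DiffBind 1.16.2. Per the file headers, the authors called peaks per library against 1 input with MACS 2.1.0.20150731 (HA: 2.1.1.20160309) at q 0.01, with pileup signal, fold enrichment ratio and -log10 p and q as deposited. The deposited region tables give normalized reads per region (signal), log2 values, p-values and FDR from the authors' comparison. Dividing by each library's lowest value gave whole reads for 100% of values within 1e-06. How libraries were normalized, and whether control reads were subtracted, is not given in the sources used here.

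Within each table, log2(normalized reads + 1) was fitted with limma 3.58.1 (R 4.3.3, trend), leaving out the 25% of regions with the lowest mean. P-values were adjusted by Benjamini-Hochberg over all fitted regions and called under 0.05. Scripts were tested on simulated data. Alternatives were another pseudocount, filter or normalization, the replicate block, each library left out, edgeR 4.0.16, DESeq2 1.42.0 and stricter peaks. Histone libraries kept between 28947967 and 46304808 tags and HA libraries between 1629753 and 3896935, per the file headers, and 2 libraries a line limit the precision. Regions are named for a gene when strongest within 2500 bp (H3K27ac) or 2000 bp (H3K9me3), plus the 5 called H3K9me3 regions with the largest change per comparison. Other regions were named after their values were seen. The members, gene lists and tests were chosen with earlier results of these data known. Sequences were matched by symbol.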

Additional observations from a re-analysis of the deposited data

Results flagged for a closer look

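At chr12:109858760-109861799, the first region of the stretch around Gm34554, the H3K27ac differences from OSKM had opposite signs in the 2 lines with artificial factors. C2 had 158.0 and 97.5 normalized reads against 162.5 and 165.2 in OSKM, a log2 difference of -0.40. C3 had 189.9 and 184.3 against 176.6 and 179.7, a log2 difference of 0.07. Every C2 library was below and every C3 library above both OSKM libraries, which the comparisons share. The direct C2 minus C3 difference was -0.43 ± 0.33 (log2, SE) and did not pass the threshold (limma adjusted p = 0.64).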

How the results depend on the processing

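Of the regions recomputed under the alternatives, no called one changed sign. The uncalled C2 minus C3 H3K9me3 difference at Mir433 to Mir136 (0.04) was -0.43 without C3 replicate 2 and -0.04 in the authors' deposited table. Of the H3K27ac regions, 17 were called in C2 against OSKM, 9 with quantile normalization, and 11 to 21 when 1 library was left out (11 without OSKM replicate 1). In C3, 13 were called, 21 with median-centred libraries and 11 to 17 with a library left out. For H3K9me3 in C2 against OSKM, 4 were called and 2 to 8 with a library left out, and in C3 6 and 4 to 7. Where an arm kept 1 library, it was assumed to vary like the other group. The labels do not say that same-numbered libraries belong together. Deviations of same-numbered H3K27ac libraries correlated at 0.35 between C2 and C3, and in the other 5 comparisons between -0.05 and 0.11. With the replicate block limma called 19 and 17 H3K27ac regions in C2 and C3 against OSKM, 2 between C2 and C3 where 0 were called without it, and 5, 6 and 0 H3K9me3 regions. Peaks with a -log10 q of at least 5 numbered, as means over 2 libraries, 25 (from 31) for H3K27ac in C3, 34.5 (from 39.5) in OSKM, and for H3K9me3 17 (from 21) in C2, 18 (from 24) in C3 and 21.5 (from 24.5) in OSKM. With chromosomes 8, X and Y out of the total, the cluster's share per 1000000 reads was 813 for H3K27ac in OSKM, and for H3K9me3 560.3 in C2 and 624 in OSKM. Over all regions of the genome, C2 against OSKM gave 10691 H3K27ac calls (49.2% higher), 3341 with quantile normalization (62.2%), 17254 median-centred (37.6%) and 17947 in the authors' deposited table (69.3%). The median H3K27ac log2 difference of all regions (-0.01 in C2, 0.03 in C3) was -0.13 and -0.14 with median-centred libraries and 0.14 and -0.12 in the authors' deposited table. For H3K9me3 it gave 1698 calls (11.8% higher), 578 with quantile normalization (28.0%) and 3379 in the authors' deposited table (34.7%). In C3 against OSKM, 61.3% of H3K27ac calls were higher, 50.5% median-centred, and of H3K9me3 calls 19.0%, 40.2% with quantile normalization. Between C2 and C3, 59 H3K27ac regions were called in all, 1178 with DESeq2 and 13562 with the replicate block. The causes of these changes were not tested. Depth per region was 1 read at the floor, so acetylation under the background cannot be seen.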
